A study of Caenorhabditis elegans with 2 samples.

Results

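ChIP-seq peaks of eGFP-F16B12.6 were selected that lay at the promoter of a protein-coding gene with another gene on the same strand ending close upstream of it. That upstream neighbour is called the gene behind, and the bases between the 2 genes the gap. The promoter window of a gene covered the 1000 bp before and the 200 bp after its annotated 5′ end. A thresholded peak was kept when its summit lay in windows of one strand only, and when a same-strand protein-coding gene ended at most 500 bp upstream of the nearest such 5′ end or overlapped it. The rule uses positions and no signal values. It kept 265 of the 2183 thresholded peaks (12.14%), which are called tandem peaks here, at 262 genes, called member genes. They made up 26.37% of the 1005 peaks with windows of one strand in reach (95% Wilson interval 23.74 to 29.18%), and the other 740 are called the other one-strand peaks here. A further 656 peaks lay in windows of both strands, as between divergent genes, and 522 lay outside all windows. In 250 of the 265 tandem peaks, a single 5′ end was in reach.

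Chromatin was immunoprecipitated from whole L1 larvae of Caenorhabditis elegans, males and females pooled, with the eGFP-tagged protein F16B12.6 as the target. The worms were of strain OP114, which carries the unc-119 allele tm4063 on chromosome III and the transgene insertion wgIs114. The 2 biological replicates form 1 group and share this genotype, so the transgene and the unc-119 background cannot be told apart from the target, and no list of untagged worms was used here. The relaxed lists, 1 per replicate and 1 for the pool, rank peaks together with background and hold 30000 entries apiece. All 2183 thresholded peaks are also entries of the pooled list. The depth behind the entries is unknown, since no read numbers were at hand. Peak lists hold no expression values, so stage and tissue could not be checked against marker genes, and whole larvae mix all cell types.

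Many genes of this worm stand close together on one strand, and a part of them form operons. An operon is transcribed from a promoter in front of its first gene into a single precursor RNA, which is cut and polyadenylated at the end of each gene. Downstream genes then receive the spliced leader SL2, while genes with a promoter of their own mostly receive SL1. The usual sequence of a splice acceptor ends in TTTCAG, which is not taken here as a mark of either leader. A gene inside a tandem run can also have an internal promoter, in the gap behind it or within the gene that precedes it.

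Sequences are printed for the 12 strongest tandem peaks on chromosomes II to V and X whose summit lay in the gap and whose 61 bases centred on the summit touched no annotated exon. Stronger peaks whose stretch reached an exon, as at rsa-2 and rpn-11, are left out. Each stretch is written 5′ to 3′ on the strand of the gene, from the WBcel235 sequence, which has the coordinates of ce11. Capitals mark a match to the hexamer ACGCGC, to the hexamer GCAAAC or to the hexamer ACGCAG on either strand.

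gcn-1 (chrIII:2151651-2151711, + strand): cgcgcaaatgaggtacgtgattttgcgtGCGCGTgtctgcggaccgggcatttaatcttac
wdr-46 (chrIV:12372052-12372112, + strand): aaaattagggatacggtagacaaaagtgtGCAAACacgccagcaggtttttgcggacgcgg
pro-1 (chrII:10542104-10542164, - strand): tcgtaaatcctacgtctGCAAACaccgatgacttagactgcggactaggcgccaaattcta
W03F9.1 (chrV:126774-126834, - strand): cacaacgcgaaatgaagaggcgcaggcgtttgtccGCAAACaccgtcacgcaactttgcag
hut-1 (chrIII:12711386-12711446, + strand): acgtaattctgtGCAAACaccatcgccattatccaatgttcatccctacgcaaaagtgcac
rpn-13 (chrIII:6342221-6342281, - strand): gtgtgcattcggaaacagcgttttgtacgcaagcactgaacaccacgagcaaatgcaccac
pqn-27 (chrII:13460825-13460885, - strand): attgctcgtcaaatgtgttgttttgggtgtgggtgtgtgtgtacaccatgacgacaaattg
ndua-7 (chrII:13494932-13494992, - strand): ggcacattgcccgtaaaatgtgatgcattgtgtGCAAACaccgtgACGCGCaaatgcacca
F08F8.10 (chrIII:7357537-7357597, - strand): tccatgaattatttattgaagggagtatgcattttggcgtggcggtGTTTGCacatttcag
trpp-9 (chrX:11563807-11563867, + strand): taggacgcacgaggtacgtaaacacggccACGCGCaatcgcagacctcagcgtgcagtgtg
C11D2.4 (chrIV:6157000-6157060, - strand): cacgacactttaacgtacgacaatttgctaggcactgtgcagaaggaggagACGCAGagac
wdr-5.1 (chrIII:3705150-3705210, + strand): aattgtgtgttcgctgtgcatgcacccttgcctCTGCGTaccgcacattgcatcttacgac

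Of the 12 stretches, 10 hold at least 1 of the 3 hexamers, and that of ndua-7 holds 2. Those of rpn-13 and pqn-27 hold none within the printed bases.

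Within 50 bp of the summit, ACGCGC occurred on either strand at 75 of the 265 tandem peaks (28.30%), GCAAAC at 64 (24.15%) and ACGCAG at 47 (17.74%). In stretches of the same length centred 200 bp to either side of the same summits, the shares were 0.566%, 4.53% and 2.26% of 530. Centred 150 bp upstream of the 5′ end of all 19973 protein-coding genes, windows of the same length held them in 2.54%, 6.09% and 3.10%. The hexamer ACGCGC and likewise GCAAAC were picked after their values were seen, as the hexamers with the widest margin at these summits, and ACGCAG was known from earlier results, so the margins are a description. At least 1 of the 3 occurred at 152 tandem peaks (57.36%) and none at 113. The hexamers may overlap one another.

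The same hexamers occurred at the other one-strand peaks in 24.86%, 26.22% and 19.32%. The differences, tandem minus other one-strand peaks, were 3.44 percentage points for ACGCGC (95% Newcombe interval −2.59 to 9.87), −2.07 for GCAAAC (−7.85 to 4.22) and −1.59 for ACGCAG (−6.69 to 4.13). Each interval includes 0, so no difference was shown. Weaker pooled entries that met the same positional rule but did not pass the threshold held the hexamers in 3.15%, 5.16% and 3.65% of 1396. GAGAGA, a repeat bound by GAGA-type factors in flies, occurred at 12.45% of tandem peaks and 22.30% of the other one-strand peaks, a difference of −9.84 points (−14.5 to −4.50). At both-strand peaks it occurred in 14.48%, and no difference from them was shown (−2.03 points, −6.53 to 3.13). Among weaker entries it occurred in 7.16% of those downstream of a tandem gene and in 11.31% of the others. The median content of G and C in this window was 44.55% at tandem summits and 47.52% at the other one-strand summits, and 33.66% in the flanks of both.

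Signal values are the caller's own and have no stated scale, so they describe and rank peaks within a list. Across the tandem peaks the pooled value was close to the sum of both replicates' values (median ratio 1.01). Pooled signal ran from 22.05 to 799.0, with a median of 58.94 and quartiles of 32.75 and 135.8. The median was 51.53 at the other one-strand peaks, 59.52 at both-strand peaks and 47.93 over all thresholded peaks. Of the tandem peaks, 149 (56.23%) were among the 1091 strongest thresholded peaks, against 53.11% of the other one-strand peaks, a difference of 3.12 points (−3.88 to 9.98). Among the 200 strongest, the shares were 8.30% and 11.62% (difference −3.32 points, −7.05 to 1.16). Neither comparison showed a difference. Tandem peaks with GCAAAC had a median signal of 120.5, against 50.72 for those without, and 67.19% against 52.74% were among the 1091 strongest (difference 14.5 points, 0.501 to 26.8). Of the 6 hexamers compared in this way, GCAAAC was the one whose interval excluded 0.

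The strongest tandem peak lay between frl-1 and gcn-1, whose yeast counterpart activates the kinase Gcn2 when amino acids are short. It had a signal of 799.0 in the pooled list, 500.6 in replicate 1 and 298.7 in replicate 2. It ranked 22 among the thresholded peaks, 20 in replicate 1 and 26 in replicate 2. Its summit was 264 bp upstream of gcn-1 in a gap of 391 bp. Next came epg-8, an autophagy gene downstream of dsbn-1, with a pooled signal of 796.6 (497.6 in replicate 1 and 295.3 in replicate 2). The centrosome gene rsa-2, downstream of spat-2, had 746.4 (446.4 and 304.2 in replicates 1 and 2), with the summit 10 bp from its 5′ end. The first 3 therefore kept nearly the same rank in each replicate, all within the strongest 30 entries.

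Of the 20 strongest tandem peaks, 3 were at proteasome genes. Over the whole list of 33 proteasome genes, 18 were nearest to a thresholded promoter summit, against 8.19% of all genes. Peaks at such genes are thus not particular to the tandem class. At rpn-11, which encodes the deubiquitinating subunit of the proteasome lid, the pooled signal was 739.0 (451.8 and 287.0 in replicates 1 and 2), 11 bp upstream of the 5′ end and in a gap of 225 bp downstream of K07D4.2. At rpt-3, an ATPase of the proteasome base, it was 495.1 (297.0 and 197.0), but the summit lay 686 bp upstream, in the 3′ untranslated region of chtb-2. At rpn-13, a ubiquitin receptor of the proteasome, it was 484.4 (310.6 and 173.9), in a gap of 463 bp downstream of C56G2.9. The distances from the 5′ end thus differed widely between genes of the same complex.

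The peak at wdr-46, a WD repeat protein of ribosome biogenesis downstream of the deadenylase gene ccr-4, had a pooled signal of 648.7 (389.6 and 256.4 in replicates 1 and 2). That at pro-1, a WD repeat protein downstream of the kinase gene mnk-1, had 590.3 (348.5 and 240.3). That at nxt-1, an mRNA export factor, had 429.0 (249.4 and 184.4), 26 bp from the 5′ end in the 149 bp downstream of trap-1. Each of these ranked among the strongest 161 entries of both replicates.

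At did-2, an ESCRT-associated protein downstream of F23C8.7, the pooled signal was 581.6 (333.8 and 245.6 in replicates 1 and 2). At agef-1, an exchange factor for ARF GTPases downstream of W09C5.1, it was 537.9 (354.9 and 183.1). At hut-1, a nucleotide sugar transporter homolog downstream of the centriole gene sas-1, it was 524.4 (331.9 and 197.7). The zinc transporter gene zipt-11, downstream of rpa-4, had 421.7 (243.0 and 179.2). Of these 4, agef-1 differed most in rank between replicates, at 56 in replicate 1 and 132 in replicate 2.

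The replicative helicase subunit mcm-4, downstream of Y39G10AR.32, had a pooled signal of 499.9 (320.5 and 183.4 in replicates 1 and 2). The complex I subunit ndua-7, downstream of drr-1, had 419.9 (239.3 and 174.3). The remaining 5 of the 20 strongest were K04F10.7 downstream of K04F10.1, W03F9.1 downstream of W03F9.2, C25A1.16 downstream of fath-1, pqn-27 downstream of E01G4.3, and C15H9.4 downstream of C15H9.5 with pooled signals of 605.2, 549.6, 478.9, 463.5 and 402.0. Of these, K04F10.7 and C15H9.4 had their summit downstream of the 5′ end, at 7 and 120 bp, and C25A1.16 had its summit 604 bp upstream, in an intron of fath-1.

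Nearly all tandem peaks had an entry in both replicates. Of the 265, 245 (92.45%, 88.63 to 95.06%) overlapped one of the 2183 strongest entries of replicate 1 and 239 (90.19%, 86.01 to 93.22%) one of the 2183 strongest of replicate 2. Over all thresholded peaks, which were derived from these replicates, the shares were 90.70% and 86.30%, so the tandem peaks stood near the whole list. In all, 219 were among the strongest of both, and 0 were among those of neither, which allows a share of up to 1.13%. At 263 peaks with an entry in both lists, signal ranks had a Spearman correlation of 0.878 across peaks, which share their libraries and were chosen from the pool of these same replicates. The exceptions were weak peaks. Those at Y55D9A.2 (pooled signal 25.86) and F28F8.9 (22.75) had no entry in replicate 2, and the peak at stc-1 (30.75) ranked 1218 in replicate 1 and 16098 in replicate 2, while that at R148.3 (24.95) ranked 19859 and 1234.

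**Figure D1:**
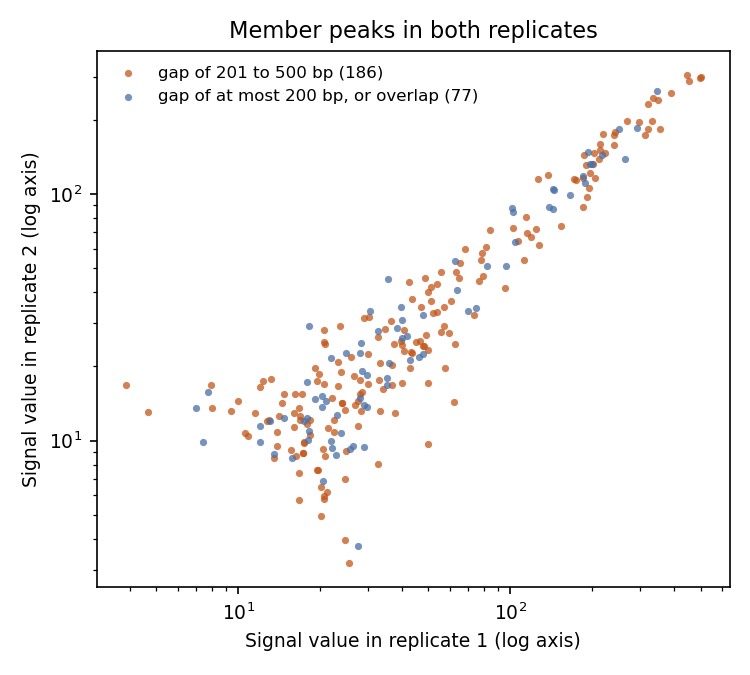
Signal value of the 263 tandem peaks with an entry in both replicates, replicate 1 on the x axis and replicate 2 on the y axis, both logarithmic; each point is a peak, coloured by the gap behind its gene. Peaks with wide and with short gaps lie along the same band (Spearman correlation 0.878 over all points), and the spread is widest at low signal.

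The summits stood mostly in the gap between the genes. Of the 265, 208 (78.49%, 73.16 to 83.01%) lay between the 3′ end of the gene behind and the 5′ end, 24 (9.06%) inside the gene itself and 33 (12.45%) inside the gene behind. Those in the gene behind were in an intron in 17 cases, in a 3′ untranslated region in 13 and in a coding exon in 3. Of the 1396 weaker entries that met the same rule, 20.77% lay in the gap, 18.91% in the gene itself and 60.32% in the gene behind. The share in the gap differed by 57.7 points, tandem peaks minus weaker entries (51.9 to 62.7). This pools all gap sizes. Of the tandem summits, 0 of 10 lay in gaps of 1 to 50 bp and 29 of 56 in gaps of 51 to 200 bp. In gaps over 200 bp it was 73 of 79 up to 300 bp, 56 of 56 up to 400 bp and 50 of 52 up to 500 bp. The margin was not computed within gap sizes, so the mix of gaps may hold a part of it. The weaker entries were spread close to the sequence that meets the rule, of which the gap took 17.10% and the gene behind 64.83%. Coding exons of the gene behind took 29.44% of that sequence and held 1.13% of the tandem peaks and 27.87% of the weaker entries.

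**Figure D2:**
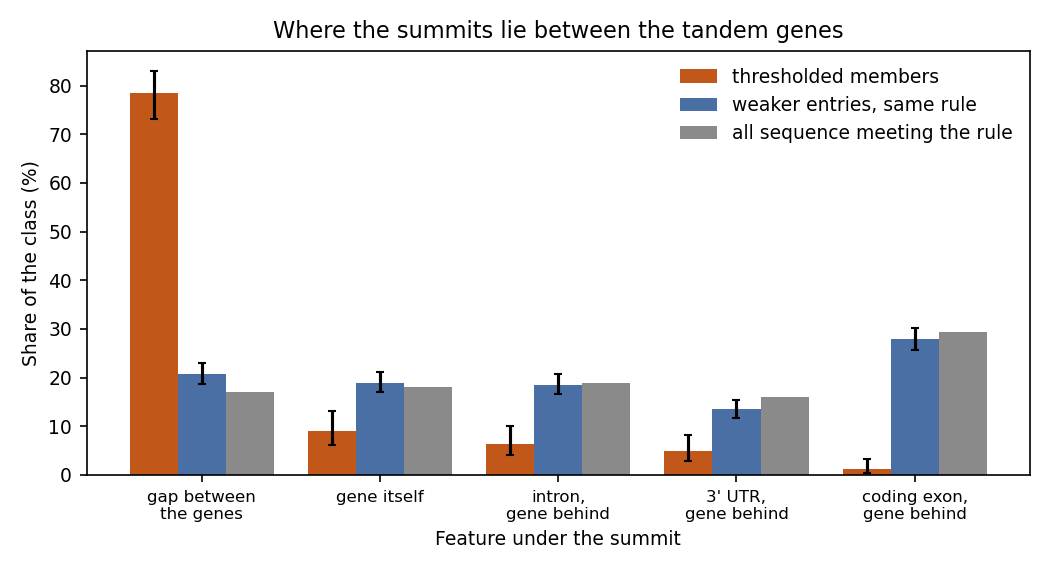
Share (y axis, %) of the 265 thresholded tandem peaks, of the 1396 weaker entries meeting the same rule and of all sequence meeting the rule (1 base in 10 sampled), by the feature under the summit (x axis); bars carry 95% Wilson intervals except for the sequence. With all gap sizes pooled, the gap holds 78.49% of thresholded summits, 20.77% of weaker entries and 17.10% of the sequence.

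Over all gaps together, summits in the gap were about as often nearer to either gene. Single summits varied, and the part of the gap lying upstream of the summit had quartiles of 35.68% and 65.07%. Similar median distances alone do not show a kept distance, since summits spread evenly along the gap would also give them. Over the 208 summits the median distance was 149.0 bp from the 5′ end ahead and 143.5 bp from the 3′ end behind, in gaps of median 305.0 bp, and 102 (49.04%, 42.32 to 55.79%) were nearer to the 5′ end. In gaps over 400 bp the median distances were 228.5 bp and 225.5 bp over 50 summits, and in gaps of 51 to 200 bp they were 51 bp and 89 bp over 29. Weaker entries in the gap had medians of 117.0 bp and 126.0 bp. In gaps over 200 and up to 300 bp, 27 of 73 summits were nearer to the 5′ end (36.99%, 26.82 to 48.45%), so most stood closer to the gene behind, at a median of 116.0 bp. In the other gap classes the interval of that share included equal numbers on both sides.

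Measured from the nearest 5′ end, tandem summits were closer in than those of the other one-strand peaks. Of the tandem peaks 186 (70.19%) lay within 200 bp of it, against 39.46% of the other one-strand peaks, a difference of 30.7 points (24.0 to 37.0). It was 14.2 points with a largest gap of 1000 bp and 20.4 points with windows of 500 bp upstream. Over 500 bp upstream lay 2.64% and 21.08% (difference −18.4 points, −21.8 to −14.6). A summit over 500 bp upstream cannot lie in a gap of at most 500 bp. For summits in the gap, the rule itself thus bounds the distance, and these differences are not independent of it. Downstream of the 5′ end lay 9.06% and 3.51% (difference 5.54 points, 2.24 to 9.76). In these 3 measures no difference from both-strand peaks was shown, of which 73.93% lay within 200 bp. Among weaker entries, 40.04% of those downstream of a tandem gene and 35.14% of the other one-strand entries lay within 200 bp.

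**Figure D3:**
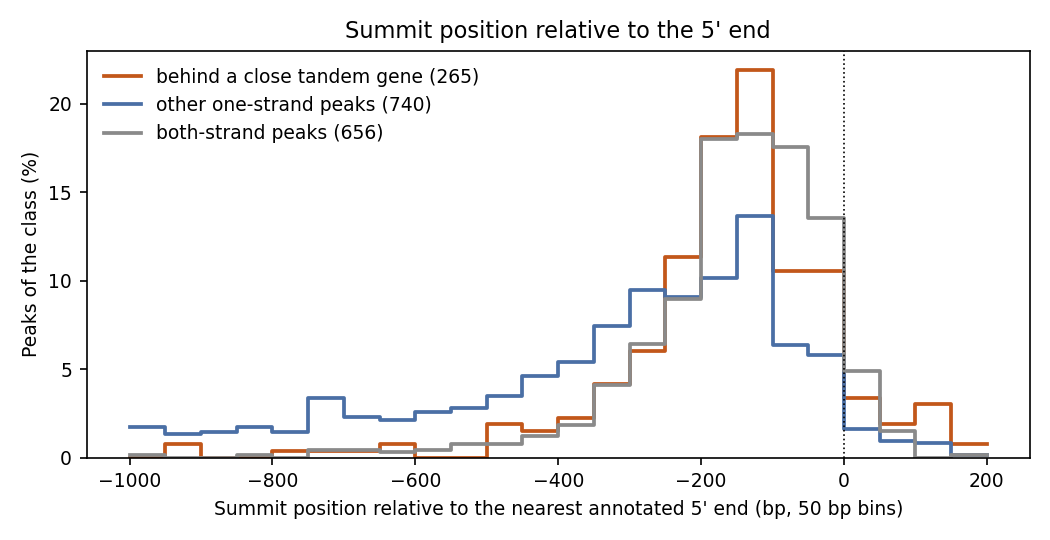
Share of each class (y axis, %) by summit position relative to the nearest annotated 5′ end (x axis, bp, bins of 50 bp, upstream negative) for tandem, other one-strand and both-strand peaks. Tandem summits gather within 200 bp (70.19%), as both-strand summits do (73.93%), while the other one-strand summits reach further upstream (39.46% within 200 bp).

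The share of genes with a thresholded peak differed by the size of the gap behind them. Over all 19973 protein-coding genes, 8.19% were the nearest to a thresholded promoter summit. The share was 2.38% (13 of 547) where the gene behind overlapped, 4.74% (10 of 211) with a gap of 1 to 50 bp and 3.32% (56 of 1689) with 51 to 200 bp. It was 12.58% (77 of 612) with a gap over 200 and up to 300 bp, 9.74% (56 of 575) up to 400 bp and 10.34% (54 of 522) up to 500 bp. Genes with gaps over 200 and up to 500 bp and genes with gaps of 1 to 200 bp thus had shares of 10.94% and 3.47%, a difference of 7.47 points (5.80 to 9.20), and this comparison was chosen after the values were seen. With gaps over 500 and up to 1000 bp the share was 8.08%, and with no same-strand gene within 1000 bp it was 8.75%. With a summit anywhere in the window counted, it was 8.2% at overlapping genes, 6.6% at 1 to 50 bp and 5.9% at 51 to 200 bp. By that count it was 13.1% up to 300 bp, 10.3% up to 400 bp, 10.7% up to 500 bp and 8.5% up to 1000 bp. With no same-strand gene within 1000 bp it was 13.3%, near that of gaps over 200 and up to 300 bp. The order of the classes thus depends on how summits are assigned to genes. Of the genes nearest to any pooled relaxed entry, 31.30% had a thresholded one at gaps over 200 and up to 300 bp and 9.40% at 51 to 200 bp.

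**Figure D4:**
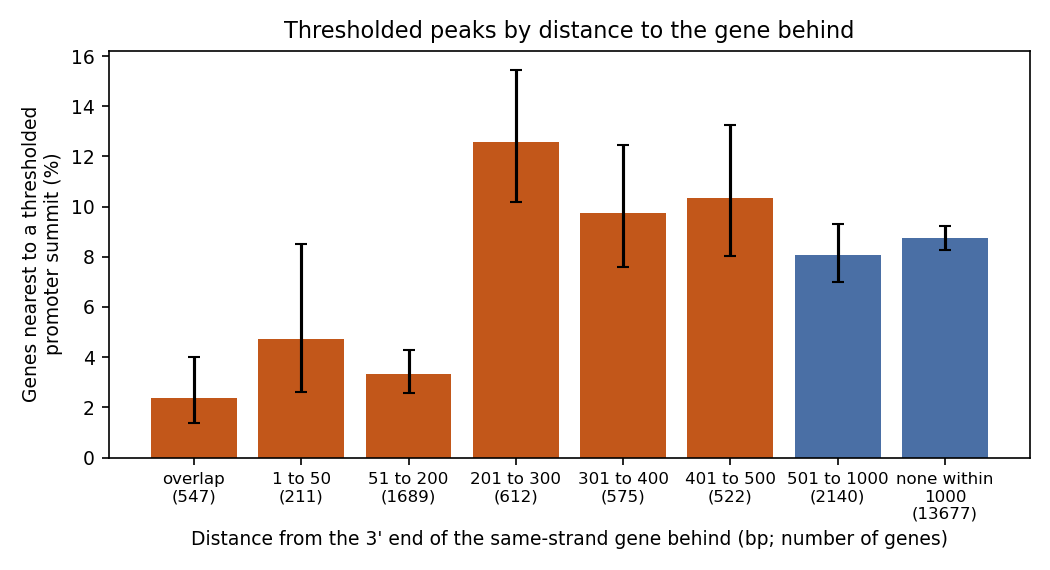
Share of protein-coding genes that are the nearest to a thresholded promoter summit (y axis, %) by the distance from the 3′ end of the same-strand gene behind (x axis, bp, with the number of genes); orange marks genes with a close tandem gene behind, blue the others, and bars carry 95% Wilson intervals. Shares lie between 2.38 and 4.74% up to 200 bp and between 9.74 and 12.58% above 200 and up to 500 bp.

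No difference in signal by gap was shown. Of the 187 tandem peaks with a gap over 200 bp, 57.75% were among the 1091 strongest thresholded peaks, against 52.56% of the 78 with a gap of at most 200 bp or an overlap (difference 5.19 points, −7.69 to 18.1). Median signals were 56.22 at overlapping genes, 45.94 at gaps of 1 to 50 bp, 50.22 at 51 to 200 bp, 50.68 up to 300 bp, 62.72 up to 400 bp and 61.06 up to 500 bp. At the limit of the rule, the tandem peaks with the widest gaps were at ubl-5 (500 bp, signal 289.6), rpb-5 (486 bp, 190.9) and R148.3 (486 bp, 24.95). Just outside it were peaks at cacn-1 (signal 429.2), rpt-1 (gap 504 bp, signal 54.08) and K05C4.7 (507 bp, 30.12).

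Over all gaps, genes with a close tandem gene behind had peaks less often than genes without one. A thresholded summit anywhere in the promoter window was found for 11.8% of all genes, and for 354 of 4162 genes with a close tandem gene behind (8.51%) and 2002 of 15811 without (12.66%). This is a difference of −4.16 points (−5.12 to −3.13). Counting each summit for its nearest 5′ end only, the shares were 6.39% and 8.67% (difference −2.27 points, −3.11 to −1.38). With a largest gap of 200 bp the difference by nearest summit was −5.69 points, and with the 1091 strongest peaks alone it was −1.36. The genes without a close tandem gene behind include the first genes of runs of tandem genes. Against genes in no run, of which 7.06% were the nearest to a summit, the difference was −0.672 points (−1.51 to 0.222), and none was shown. Of the pooled relaxed entries, 7.28% were thresholded overall. Among those meeting the positional rule 15.95% of 1661 were, against 14.16% of 5225 for the other one-strand class (difference 1.79 points, −0.151 to 3.85), so no difference was shown there.

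Same-strand genes joined by gaps of at most 500 bp or overlaps formed 2941 runs of 2 to 9 genes. A thresholded summit lay in the window of 24.18% of first genes (22.66 to 25.76%), 8.88% of the second, 6.85% of the third, 9.35% of the fourth and 8.45% of all later genes, and of 10.03% of genes in no run. First minus later genes gave a difference of 15.7 points (13.9 to 17.4). Counted by nearest summit the shares were 15.67% and 6.39% (difference 9.28 points, 7.79 to 10.8). When peaks with windows of both strands in reach were left out of this count, they were 7.96% and 6.30% (difference 1.66 points, 0.453 to 2.91). Of the genes nearest to a summit, 234 of 461 first genes and 262 of 266 later genes had one with windows of a single strand in reach, so the margin of first genes lay mostly in both-strand peaks. With runs joined by gaps of at most 200 bp, the difference by nearest summit was 18.7 points, and with 1000 bp it was 5.23.

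**Figure D5:**
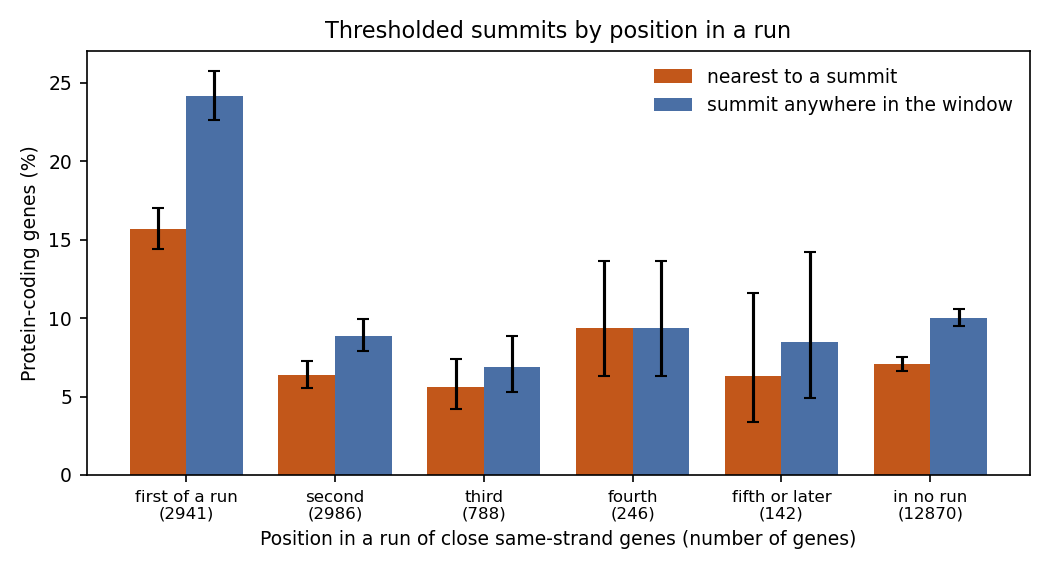
Share of protein-coding genes (y axis, %) with a thresholded summit in the promoter window (blue) and nearest to one (orange), by position in a run of close same-strand genes (x axis, with the number of genes); bars carry 95% Wilson intervals. First genes stand at 24.18 and 15.67%, second genes at 8.88 and 6.36%.

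Member genes stood at position 2 of their run in 187 cases, at position 3 in 43 and further back in 32. They were spread over 247 runs, of which 17 held at least 2 tandem peaks and 78 had a thresholded summit at the first gene too. In 3 of the 17, both peaks were at the same gene. Over all 2941 runs, 711 first genes (24.18%) had a thresholded summit in the window. The run that starts with Y41E3.7 held 3, at the DNA repair gene fcd-2 (signal 59.53), the translation elongation factor gene eef-1B.2 (64.94) and hrpu-1 (119.2), with gaps of 196, 295 and 65 bp. In the run of mnk-1, pro-1 (590.3) was followed by R166.2 (36.06). In the run that starts with Y71F9AL.1, both trap-1 (157.5) and nxt-1 (429.0) had a peak. These runs were chosen after their values were seen. The gene behind had a thresholded summit of its own at 24.43% of member genes and at 20.95% of the other genes with a close tandem gene behind (difference 3.48 points, −1.50 to 9.17), so no difference was shown.

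The sequence right before the annotated 5′ end differed between member genes and other tandem genes. TTTCAG, read on the gene's strand and ending at the base before the 5′ end, stood at 71 of 262 member genes (27.10%) and at 11.56% of the 3900 other genes with a close tandem gene behind, a difference of 15.5 points (10.4 to 21.3). With gaps over 200 bp only, the shares were 30.81% and 9.58% (difference 21.2 points, 14.8 to 28.4). Genes nearest to another one-strand peak had it in 26.97%, and no difference from them was shown (0.128 points, −5.91 to 6.61). First genes of a run had it in 15.81% and genes in no run in 11.34%. At the other side of the gap, AATAAA, the polyadenylation signal, occurred in the last 40 bases of 59.16% of genes behind a tandem peak and of 43.74% of the other genes with a close tandem gene ahead (difference 15.4 points, 9.18 to 21.4). With gaps over 200 bp only, the shares were 61.62% and 47.06% (difference 14.6 points, 6.96 to 21.7). Genes with no close tandem gene ahead had AATAAA in 48.02%. Genes ending near other peaks were not examined, so this difference need not be particular to tandem peaks. Counts of both hexamers depend on where the annotation places gene ends. TTTCAG alone does not tell the spliced leaders apart, and which one a gene receives was not examined.

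Chromosome X carried 9 tandem peaks (3.40%), against 16.22% of the other one-strand peaks (difference −12.8 points, −16.1 to −8.98). Both-strand peaks lay on X in 2.90%, and no difference from them was shown (0.500 points, −1.75 to 3.61). It carried 7.98% of the genes with a close tandem gene behind. Of these genes, 2.71% of 332 on X and 6.61% of 3830 on the autosomes were member genes (difference −3.89 points, −5.42 to −1.42). The autosomes differed among themselves, from 9.94% on chromosome I to 4.25% on chromosome V (3.16 to 5.70%). The interval of chromosome V overlaps that of X (1.43 to 5.07%). Among weaker entries, 7.02% of those downstream of a tandem gene and 17.14% of the other one-strand entries lay on X. The strongest tandem peak on X was at C15H9.4 (402.0), followed by that at trpp-9 (370.5).

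Lists of genes by function, chosen with earlier results of these data known, are described by counts. Over all genes with a close tandem gene behind, 262 of 4162 (6.30%) were member genes, and 68 of the 262 were in some list. Among proteasome subunits it was 4 of 8, namely rpn-11, rpt-3, rpn-13 and the core subunit pbs-3 (signal 55.49). Nuclear transport genes gave 4 of 7, led by nxt-1 and the nucleoporin gene npp-22 (32.77). Translation factors gave 4 of 8, led by eif-3.C (143.9) and eef-1B.2 (64.94).

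Splicing factors gave 8 of 23, with lsm-6 of the LSm ring at 363.7 and the cyclophilin cyn-12 at 288.6. Respiratory chain and ATP synthase genes gave 7 of 22, with ndua-7 at 419.9 and atp-4 at 357.0. Chaperones gave 5 of 17 (dnj-10 at 317.4, bag-1 at 124.7), DNA replication and cell cycle genes 4 of 14 (mcm-4 at 499.9 and mcm-5, another subunit of the same helicase, at 304.5), and chromatin regulators 7 of 31 (wdr-5.1 at 328.9, set-4 at 109.3). In these lists the share of tandem genes with a peak lay above the 6.30% of all such genes. The lists as wholes also stood above the 8.19% of all genes that were nearest to a thresholded promoter summit. Such genes were 18 of 33 proteasome, 21 of 43 nuclear transport, 22 of 43 translation factor and 32 of 72 splicing factor genes. They were 23 of 72 respiratory chain, 16 of 75 chaperone, 45 of 107 replication and 32 of 117 chromatin genes. The higher shares are thus not particular to tandem genes.

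Cytosolic ribosomal proteins gave 2 of 9 (rps-7 at 61.16 and rps-17 at 60.97), mitochondrial ribosomal proteins 2 of 29 (mrpl-19 at 224.9, mrpl-32 at 43.01) and aminoacyl-tRNA synthetases 2 of 11 (fars-3 at 173.2, vars-1 at 49.66). Vesicle sorting and autophagy genes gave 4 of 18 (epg-8 at 796.6, atg-18 at 29.13) and secretory pathway genes 4 of 28 (cope-1 at 228.4, trap-1 at 157.5). Ubiquitin conjugation genes gave 4 of 23 (cul-4 at 87.49, ufd-3 at 61.01) and RNA polymerase and general transcription genes 4 of 38 (rpb-5 at 190.9, sop-3 at 76.59). F-box and BATH proteins gave 3 of 77, with fbxa-10 at 323.9 and bath-39 at 227.9. Against the 6.30% of all genes with a close tandem gene behind, F-box and BATH proteins stood below, at 3.90%. Mitochondrial ribosomal proteins stood near it, at 6.90%, and the other lists above it, at 10.53 to 22.22%. As whole lists, 40 of 84 cytosolic and 21 of 70 mitochondrial ribosomal genes were nearest to a thresholded promoter summit. These whole lists stood above the 8.19% of all genes, except F-box and BATH genes (17 of 358). Most lists are small, and counts of 2 to 4 genes carry wide intervals, several including 6.30%.

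Some large gene families had no member genes. There were 0 member genes among 227 chemoreceptor genes with a close tandem gene behind, which allows a share of up to 1.32%. There were likewise 0 of 43 nuclear hormone receptors (up to 6.98%), 0 of 40 C-type lectins (up to 7.50%) and 0 of 33 cuticle collagens (up to 9.09%). Only the limit for chemoreceptors lay below the 6.30% of all genes with a close tandem gene behind. For the other families no difference from it was shown. Thresholded summits were rare in the whole families too, against 8.19% of all genes. Nearest to one were 4 of 1310 chemoreceptor genes, 4 of 274 nuclear hormone receptors, 3 of 240 C-type lectins and 2 of 177 collagens. In a list of genes from operons familiar from the literature, 12 had a close tandem gene behind. Of these, 0 had a tandem peak, which allows a share of up to 25%, above the 6.30% of all such genes. The 12 include ced-9 downstream of mev-1, gpd-2 and gpd-3 downstream of mai-1, rps-16 downstream of fib-1 and lin-15A downstream of lin-15B. The other 10 genes of this list had no close tandem gene behind, which need not make each the first gene of its operon. Of these 10, 4 had a thresholded summit in their promoter window. They were fib-1 (strongest signal in the window 56.68), mev-1 (137.5), vha-1 (71.23) and lin-15B (413.2). The summit in the window of mev-1 was nearer to another gene's 5′ end.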

How the data were processed

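The 2 biological replicates of L1 larvae were assayed by ChIP-seq against eGFP-tagged F16B12.6. The deposited readme notes say that the relaxed list of a replicate came from its own alignments and a control, the pooled list from both, and the thresholded list from the pooled and both replicate lists by an irreproducible discovery rate (IDR) analysis. Aligner, caller, tool versions and IDR cut-off were not given in the sources used here. Each entry's signal value is the one that the authors deposited, on an unstated scale. The −log10 q value that the authors deposited was read but not used, and the deposited summit offset gave the summit. Only the 4 lists on ce11 were used. The depth per sample is unknown.

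Summits were placed on the WBcel235 sequence and the Ensembl release 115 protein-coding genes of the 6 nuclear chromosomes. A gene's 5′ and 3′ ends are those of its annotated gene record. Weaker entries are pooled relaxed entries outside the thresholded list. Shares have 95% Wilson intervals and differences 95% Newcombe intervals. They cover counting error only and treat neighbouring peaks as independent, and no p-value was formed, since peaks of 1 group are not replicates. Of 24 differences between tandem peaks and other classes, those bearing on the text are printed. For a count of 0, the share that 3 counts would be is given.

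The members, gene lists and hexamers were chosen with earlier results of these data known. Genes named by rule are those of the 20 strongest tandem peaks, the 3 peaks on each side of the gap limit, and up to 2 per list. Genes of the printed sequences and of the operon list are named too. Others fall outside this rule and were picked with their values known. They are pbs-3 and genes named for replicate ranks, for runs, for chromosome X, for nearby small RNA genes or for 2 peaks at 1 gene. The classification was tested on simulated data. Alternatives were other gap limits, windows, 5′ ends and hexamer windows, the strongest 1091 peaks, and 1 replicate's 2183 strongest entries as the list. Python 3.11.15, NumPy 2.4.6, SciPy 1.17.1 and matplotlib 3.10.9 were used.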

Additional observations from a re-analysis of the deposited data

How the results depend on the processing

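Of 128 recomputed values over 16 results, 106 kept their direction and their side of 0, or moved by less than their interval. With a largest gap of 1000 bp or 200 bp there were 429 or 78 tandem peaks in place of 265 (42.69% or 7.76% of one-strand peaks), of which 85.31% or 37.18% lay in the gap. The strongest 1091 peaks held 149, of which 95.30% and 93.96% were found among the strongest of replicates 1 and 2. Without replicate 1 or replicate 2, with the strongest entries of the other replicate as the list, these shares were 83.33% and 84.35%. With a window of 500 bp, 18.77% of tandem peaks had a gene behind with its own summit, against 24.53%. The thresholded share of relaxed entries, tandem minus other one-strand, was 1.79 points with an interval including 0. It was 2.57 with every transcript's 5′ end, 3.78 with a gap of 1000 bp, 2.97 without overlapping genes and 3.25 with a 500 bp window, each interval above 0, and −7.07 with a gap of 200 bp, with an interval below 0. The share among the strongest peaks turned to −1.48 points (gap of 200 bp) and −3.42 (strongest 1091), and that for ACGCAG to 0.771 (gap of 1000 bp), 1.58 (strongest 1091) and 0.224 (500 bp window), all with intervals including 0. The cause was not tested. Results by gap class have no value with a gap of 200 bp. No paired analysis was possible because the study has 1 group. Unknown depth, a single strain and the annotated gene ends limit what these values show.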

Other observations

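Genes annotated as small nucleolar RNAs, a type that mostly guides modification of ribosomal RNA, lay within 100 bp of 7 tandem summits (2.64%). The 7 include smy-2, which is named as an SmY RNA, and a count without it was not made. At the other one-strand summits the share was 0.811% (difference 1.83 percentage points, 95% Newcombe interval 0.177 to 4.58). At both-strand summits it was 0.152% (difference 2.49 points, 0.960 to 5.20). Over all thresholded peaks the share was 2.29%, and at those outside promoter windows it was 6.90%, so the tandem share lay near that of the whole list. The strongest of the 7 was the peak between Y53F4B.12 and cmtr-1, with a pooled signal of 92.29 and ranks of 647 in replicate 1 and 670 in replicate 2. The others included the peaks at sdha-1 (39.92), a subunit of the succinate dehydrogenase complex, and Y75B12B.11 (35.31), both with the summit in the gap, at 48 and 53 bp from the small RNA gene. Transfer RNA genes lay within 100 bp of 0 tandem summits, which allows a share of up to 1.13%, and of 1.22% of the other one-strand summits.

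In 3 genes, Y71H2AM.6, M70.5 and eif-2Bgamma, the same 5′ end was the nearest to 2 tandem peaks. At eif-2Bgamma, a subunit of a translation initiation factor, the pooled signals were 42.18 and 41.85. The first summit lay in the gap, 134 bp upstream of the 5′ end. The second lay 939 bp upstream, in an intron of C15F1.5 and 29 bp from a small nuclear RNA gene, sup-39.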
